A study of Homo sapiens with 20 samples.

Results

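The 9 genes described here are TNF, LTB, NFKBIA, TNFAIP3, TNFAIP2, RELB, NFKB1, NFKB2 and BIRC3, which were taken from the expression table by symbol and make up 9 of its 36076 genes. All 9 symbols were found. They were read in human lung cancer cell lines after decitabine (DAC), a cytidine analog that is built into DNA and depletes DNA methyltransferases. mRNA-seq was available for A549, CL1-0, CL1-5, PC9, H1299 and H1792, and Omni-ATAC-seq, which maps accessible DNA with a transposase, for A549, CL1-5, PC9 and H1299. Each line gave 1 Mock library and 1 DAC library per assay, which makes 12 mRNA-seq and 8 Omni-ATAC-seq libraries. Mock cells received PBS. DAC cells received 100 nM DAC for 72 h and then grew for 3 drug-free days, and the labels name no other agent or genetic change. CL1-5 is an invasive subline of CL1-0, so these lines are not independent of each other. In such bulk libraries, fewer cells that express a gene and less RNA per cell cannot be told apart.

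NF-kB is a family of dimeric transcription factors that inhibitor proteins hold in the cytoplasm. Receptors of the TNF family switch on kinases that mark the inhibitors for breakdown, and the freed dimers enter the nucleus. Several of the genes that NF-kB turns on encode its own inhibitors or subunits, so that the level of these feedback genes is often read as a trace of recent NF-kB activity. In this set TNF and LTB encode ligands, NFKBIA and TNFAIP3 encode brakes on the pathway, RELB, NFKB1 and NFKB2 encode subunits or their precursors, and BIRC3 encodes a ubiquitin ligase of the receptor complexes. TNFAIP2 is named for its induction by TNF.

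The recovered reads on genes numbered 22234485 to 25303899 in 10 of the libraries, and in H1299 59735913 in Mock and 52634234 after DAC. Of the genes with 1 to 20 reads, 81.9% to 85.5% had an even number in the H1299 libraries, against 39.2% to 41.5% elsewhere. Reads of H1299 are therefore not independent counts, and no counting interval is given for this line. Read numbers of H1299, here and below, cannot be set against those of the other lines as a measure of depth. CL1-0 stood apart from its label of a lung adenocarcinoma line. The summed level of 6 epithelial markers (keratins among them) was 0.986 FPKM in its Mock library and 3.05 FPKM after DAC, against 112 to 3589 FPKM in the other 10 libraries. Results are therefore also given without CL1-0. The summed level of 15 leukocyte markers was 1.80 to 30.9 FPKM in Mock and 3.50 to 57.2 FPKM after DAC, higher after DAC in 6 of 6 lines. LAPTM5 made up most of the highest sums, while the defining leukocyte marker PTPRC lay between 0 and 0.0759 FPKM in all 12 libraries, and the part of these genes in the results below was not tested.

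The stretch upstream of the start of transcription was examined first for the NF-kB consensus, a 10-base motif searched on both strands. Promoter windows of 250 bases before and 50 bases after each start came from RefSeq (GRCh38.p14) and were placed in GRCh37, the build of the peak lists, where each of the 12 windows matched once. They covered 8 of the 9 genes, all but RELB. The consensus lay in at least 1 window of 6 genes, NFKB1, LTB, TNFAIP3, NFKB2, BIRC3 and NFKBIA, and in none of the windows of TNF and TNFAIP2. By window it lay in 8 of 12, or 66.7%, against 11.3% of all 35116 promoter windows of the same length. By gene it lay in 6 of 8, or 75%, against 13.3% of all 27305 genes of the table. A higher share could be foreseen, since the set was chosen as feedback genes of NF-kB, and it is no result of these data. The 250 bases before the start are shown for 4 genes with the consensus under accessible DNA and for TNF, with each match in capitals. NFKBIA lies on the minus strand at chr14:35873956-35874205, and the others on the plus strand, TNFAIP3 at chr6:138188146-138188395, BIRC3 at chr11:102187965-102188214, NFKB2 (the second of its 3 starts) at chr10:104154085-104154334 and TNF at chr6:31543092-31543341.
NFKBIA: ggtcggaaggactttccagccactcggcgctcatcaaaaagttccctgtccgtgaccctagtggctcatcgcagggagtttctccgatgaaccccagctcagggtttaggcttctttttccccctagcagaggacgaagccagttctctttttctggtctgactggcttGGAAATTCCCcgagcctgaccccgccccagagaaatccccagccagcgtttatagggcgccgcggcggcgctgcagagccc
TNFAIP3: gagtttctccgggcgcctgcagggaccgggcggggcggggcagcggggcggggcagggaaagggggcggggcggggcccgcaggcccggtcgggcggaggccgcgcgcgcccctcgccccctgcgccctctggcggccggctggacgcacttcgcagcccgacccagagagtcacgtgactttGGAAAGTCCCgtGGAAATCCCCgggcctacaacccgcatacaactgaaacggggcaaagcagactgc
BIRC3: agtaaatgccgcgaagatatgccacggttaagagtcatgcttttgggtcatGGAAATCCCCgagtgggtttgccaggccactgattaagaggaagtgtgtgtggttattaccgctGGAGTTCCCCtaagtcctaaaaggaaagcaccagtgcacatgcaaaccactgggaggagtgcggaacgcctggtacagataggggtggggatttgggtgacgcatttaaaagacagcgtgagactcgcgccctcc
NFKB2: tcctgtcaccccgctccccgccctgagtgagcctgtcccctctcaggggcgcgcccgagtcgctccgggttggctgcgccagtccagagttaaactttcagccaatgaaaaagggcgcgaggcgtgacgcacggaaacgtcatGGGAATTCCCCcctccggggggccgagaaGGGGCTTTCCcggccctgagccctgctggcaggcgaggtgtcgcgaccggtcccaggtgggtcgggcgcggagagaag
TNF: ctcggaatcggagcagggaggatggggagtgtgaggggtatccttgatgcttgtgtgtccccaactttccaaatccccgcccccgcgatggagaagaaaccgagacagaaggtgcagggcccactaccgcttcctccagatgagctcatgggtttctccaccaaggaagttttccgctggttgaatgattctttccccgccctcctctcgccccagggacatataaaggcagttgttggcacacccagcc

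The match of NFKBIA began 81 bases before the start. TNFAIP3 had a pair of matches, at 67 and 55 bases before its start, and BIRC3 had matches at 199 and 135 bases. In NFKB2 the first run of capitals held matches on both strands that overlap each other, and a further match began 78 bases before the start. All of these matches lay under a listed peak in 8 of 8 Omni-ATAC-seq libraries, as did that of NFKB1, which began 49 bases before its first start. The matches of LTB lay under a peak in 0 of 8 libraries. No list held a peak anywhere in the surrounding stretch of chromosome 6, so the accessibility of the LTB matches cannot be read. Those at the third start of NFKB2 lay under a peak in 4 to 6 of 8. A match is only a run of letters, and binding was not measured.

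The comparison of Mock with DAC asked how these genes differed 3 days after the drug was withdrawn. 8 of the 9 genes had a positive log2 fold change over the 5 lines of the fit (58.8% of all 22603 genes tested did), with TNF, TNFAIP2, BIRC3, RELB and TNFAIP3 showing the largest values. Such a shift was not particular to the 9, whose median was 0.63. The 11 tested leukocyte markers were all positive (median 0.63, 6 with an unadjusted limma p under 0.05). The 6 epithelial markers were also all positive (median 0.68, 1 with such a p). 0 of the 9 passed an adjusted p of 0.05 in limma with Benjamini-Hochberg adjustment, where 27 genes of all tested (0.119%) were higher and 0 (0.0%) lower. With p not adjusted and under 0.05, 5 of the 9 were higher (8.07% of all genes), whereas none of the 9 was among the 994 genes (4.4%) on the lower side. TNF, TNFAIP3, TNFAIP2 and BIRC3 were higher after DAC in 6 of 6 lines, against 4.54% of all genes, and the same 4 were those higher in 5 of 5 lines of the fit, against 6.76%. These counts include differences within counting error, for TNF and BIRC3 in CL1-0 and for TNFAIP3 in CL1-0 and CL1-5. For TNF in A549, on 0 and 6 reads, no counting interval was computed. That difference is not shown to exceed counting error. TNF had a mean under the filter of 0.1 FPKM in the Mock libraries and was tested only through its DAC libraries, so that it had to differ. The counts above include TNF, and its place in them is no result about this gene. The values are on the scale log2(FPKM + 0.1), where FPKM counts fragments per kilobase of gene and is scaled by read depth, and the added 0.1 shrinks the changes of low genes. The fit left out H1792, which enters only where named.

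**Figure D1:**
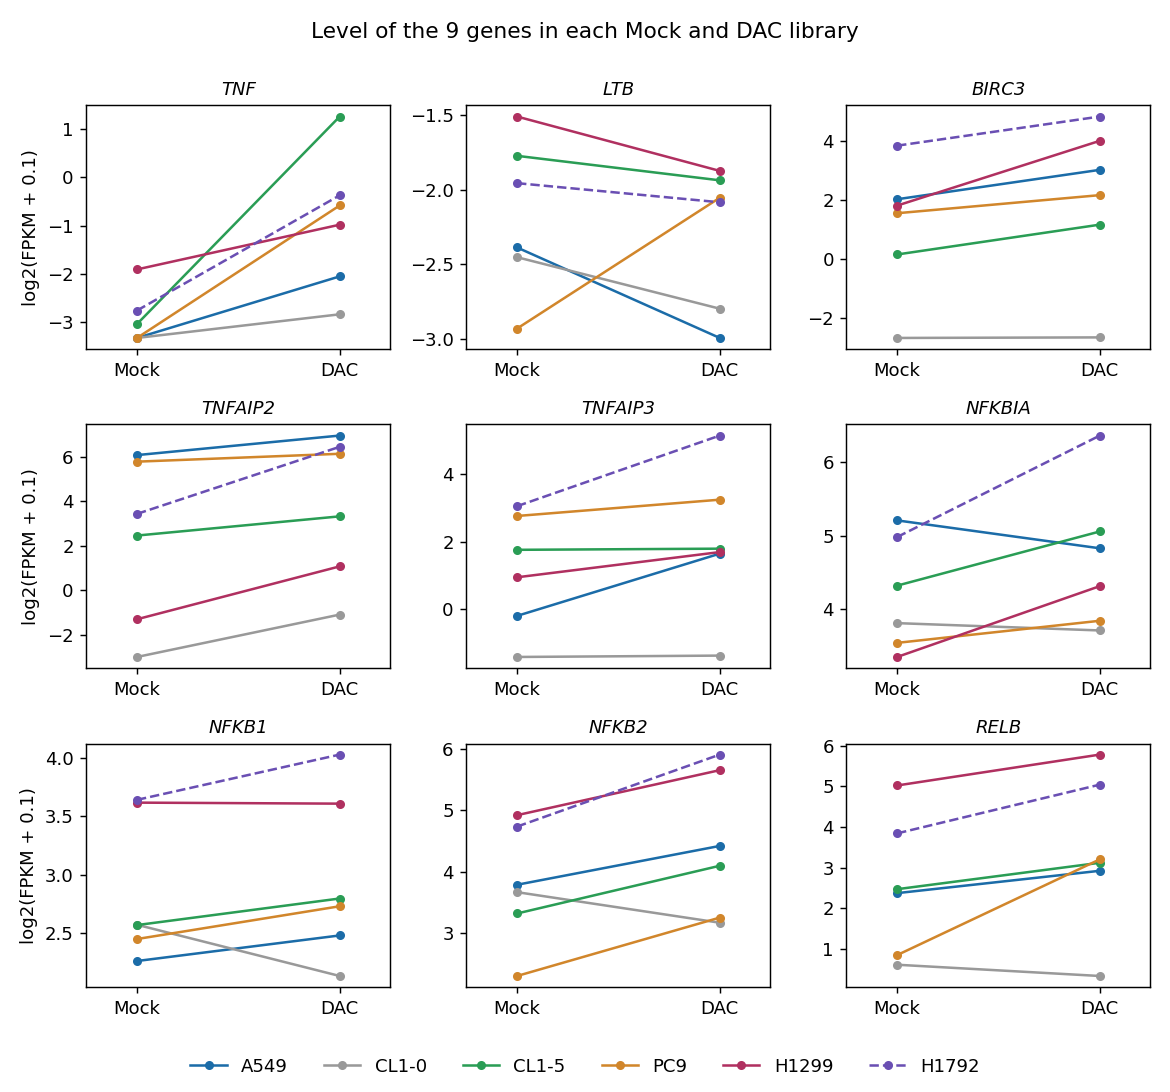
Level of each gene as log2(FPKM + 0.1) on the vertical axis, Mock on the left and DAC on the right of each panel, with 1 point per library and 1 line per cell line (H1792, dashed, was not in the fit). Vertical axes differ between panels; TNF is higher on the right in 6 of 6 lines, LTB is higher on the right only in PC9, and CL1-0 is lowest in both treatments for TNFAIP2, TNFAIP3, BIRC3 and RELB.

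Among the ligands, TNF (ENSG00000232810, chr6:31543342-31546113, GRCh37) encodes tumor necrosis factor, a cytokine that activates NF-kB through its receptors. In Mock cells it was listed at 0 FPKM in A549, CL1-0 and PC9, at 0.0220 in CL1-5, 0.0481 in H1792 and 0.167 in H1299. After DAC it stood at 0.0403 FPKM in CL1-0, 0.142 in A549, 0.407 in H1299, 0.567 in PC9, 0.671 in H1792 and 2.29 in CL1-5. The highest Mock library, H1299, lay above the DAC libraries of CL1-0 and A549, so the groups overlapped across lines. These levels rest on few reads. CL1-5 went from 1 read to 93, a ratio of 104 in FPKM with a 95% counting interval of 18.2 to 4143. H1792 went from 2 reads to 27, a ratio of 14.0 with an interval of 3.51 to 121. PC9 went from 0 to 22 reads, a ratio of 6.59 when a floor of 3 reads replaces the 0. A549 went from 0 to 6 reads, a ratio of 1.69 by the same floor. Both ratios take the DAC reads as exact, so they are not lower limits of a counting interval. In CL1-0, with 0 and 2 reads, no difference was detectable at this depth. H1299 went from 16 to 36 reads. The log2 fold change over the 5 lines was 1.94 ± 0.55 (standard error), with an adjusted p of 0.282 in limma, and it was 2.31 ± 0.58 (adjusted p 0.337) without CL1-0. Its size depended on the constant added before the log, at 0.57 with 1 and 3.90 with 0.01, and it was 3.65 with voom and 2.86 on TPM, each with an adjusted p above 0.05.

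LTB (ENSG00000227507, chr6:31548302-31550299), which encodes the lymphotoxin beta subunit of the ligand of the LTBR receptor, lies next to TNF. It was at 0.0313 to 0.251 FPKM in Mock and at 0.0258 to 0.173 FPKM after DAC, on 1 to 22 reads a library. PC9 was the line with a higher value after DAC (0.0313 to 0.141 FPKM, from 1 read to 5). In the other 5 lines the DAC value was lower, and the counting intervals of the ratio included 1 in A549, CL1-0, CL1-5, PC9 and H1792. The log2 fold change was -0.12 ± 0.28 (limma, adjusted p 0.871), and at this depth a difference in LTB was not detectable.

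Both ligand genes lie in the major histocompatibility complex of chromosome 6, where alignment can differ between libraries. In the peak lists, the stretch around them from 31371824 to 31697800 of chromosome 6 held 0 peaks in 8 of 8 libraries, whereas 23 to 76 peaks a library lay on alternative haplotype contigs of chromosome 6. The accessibility of TNF and LTB therefore cannot be read from these lists. In the mRNA-seq table their neighbour BAG6 was at 27.2 to 71.8 FPKM, and DDX39B was listed at 0 FPKM in both H1299 libraries and at 5.54 to 25.6 FPKM in the other 10. The part of this in the levels of TNF and LTB was not tested.

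Among the brakes, NFKBIA (ENSG00000100906, chr14:35870285-35873955) encodes IkB alpha, the inhibitor that retains NF-kB dimers in the cytoplasm. In FPKM, NFKBIA went from 36.9 to 28.3 in A549, 14.0 to 13.0 in CL1-0, 19.9 to 33.2 in CL1-5, 11.6 to 14.3 in PC9, 10.1 to 19.8 in H1299 and 31.5 to 82.0 in H1792. It was higher after DAC in 4 lines, most in H1792 (log2 change 1.38) and H1299 (0.96), and lower in A549 (-0.38) and CL1-0 (-0.10, within counting error). The log2 fold change over the 5 lines was 0.30 ± 0.21 (limma, adjusted p 0.552). With H1792 it was 0.48 ± 0.23 (adjusted p 0.452), and without CL1-0 0.40 ± 0.24 (adjusted p 0.613). It was 0.14 without H1299 and 0.20 without CL1-5.

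TNFAIP3 (ENSG00000118503, chr6:138188351-138204451) encodes A20, a ubiquitin-editing enzyme that shuts down signaling from the TNF receptor. Its FPKM went from 0.776 to 3.04 in A549, 0.277 to 0.288 in CL1-0, 3.30 to 3.38 in CL1-5, 6.71 to 9.43 in PC9, 1.84 to 3.15 in H1299 and 8.24 to 35.4 in H1792. The log2 change was 2.09 in H1792, 1.84 in A549, 0.75 in H1299, 0.48 in PC9, 0.04 in CL1-0 and 0.03 in CL1-5. The counting interval of the FPKM ratio in CL1-5 was 0.895 to 1.17 around a ratio of 1.02, on 452 and 415 reads. TNFAIP3 had a log2 fold change of 0.63 ± 0.27 (limma, adjusted p 0.408). It was 0.78 ± 0.30 (adjusted p 0.487) without CL1-0 and 0.87 ± 0.30 (adjusted p 0.324) with H1792, and 0.33 without A549.

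TNFAIP2 (ENSG00000185215, chr14:103587813-103603776), also known as M-Sec and tied to the formation of membrane nanotubes, varied most among lines. Its Mock level was 67.6 FPKM in A549, 55.1 in PC9, 10.7 in H1792, 5.41 in CL1-5, 0.306 in H1299 and 0.0253 in CL1-0. After DAC it was 124.4 FPKM in A549, 70.4 in PC9, 87.6 in H1792, 9.93 in CL1-5, 2.01 in H1299 and 0.369 in CL1-0. All 6 lines were higher after DAC, and the log2 changes ran from 0.35 in PC9 to 3.02 in H1792. In CL1-0 the Mock value rested on 3 reads and the DAC value on 55, a ratio of 14.6 with a counting interval of 4.75 to 73.1. The lines that were lowest in Mock stayed lowest after DAC, with H1299 and CL1-0 at the bottom. TNFAIP2 had a log2 fold change of 1.28 ± 0.29 (limma, unadjusted p 0.00295, adjusted p 0.204). It was 1.12 ± 0.33 (adjusted p 0.387) without CL1-0 and 1.57 ± 0.34 (adjusted p 0.137) with H1792.

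BIRC3 (ENSG00000023445, chr11:102188215-102210134) encodes cIAP2, a ubiquitin ligase that carries the survival signal of TNF receptors and restrains the alternative NF-kB pathway. In FPKM, BIRC3 went from 3.997 to 8.09 in A549, 0.0563 to 0.0584 in CL1-0, 1.02 to 2.15 in CL1-5, 2.85 to 4.41 in PC9, 3.43 to 16.1 in H1299 and 14.4 to 28.6 in H1792. H1299 had the largest change, with a ratio of 4.70 in FPKM, and A549, CL1-5 and H1792 had log2 changes of 0.99 to 1.01. CL1-0 was near 0 in both libraries, on 10 and 13 reads, with a counting interval of 0.420 to 2.64 for the ratio. For BIRC3 the log2 fold change was 0.97 ± 0.29 (limma, unadjusted p 0.0117, adjusted p 0.292), and 1.21 ± 0.27 (adjusted p 0.302) without CL1-0. With the voom weighting of the recovered reads its adjusted p was 0.0601, the lowest of any of the 9 genes under any alternative. That fit took the H1299 reads as recovered, although they are not independent counts, and H1299 had the largest change.

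Among the subunits, NFKB1 (ENSG00000109320, chr4:103422487-103538459) encodes the p105 precursor of p50, which pairs with RELA in the classical pathway. NFKB1 went from 4.70 to 5.48 in A549, 5.85 to 4.29 in CL1-0, 5.84 to 6.85 in CL1-5, 5.37 to 6.54 in PC9, 12.2 to 12.1 in H1299 and 12.4 to 16.2 in H1792 (all FPKM). Its log2 changes stayed between -0.44 in CL1-0 and 0.39 in H1792, the smallest span of changes of the 9 genes. For NFKB1 the log2 fold change was 0.06 ± 0.14 (limma, adjusted p 0.880), and 0.18 ± 0.14 (adjusted p 0.683) without CL1-0.

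NFKB2 (ENSG00000077150, chr10:104153867-104162281) encodes the p100 precursor of p52, the subunit of the alternative pathway. Its FPKM went from 13.7 to 21.4 in A549, 12.6 to 8.93 in CL1-0, 9.92 to 17.1 in CL1-5, 4.85 to 9.46 in PC9, 30.2 to 50.3 in H1299 and 26.6 to 60.0045 in H1792. The 5 lines other than CL1-0 were higher after DAC, with log2 changes of 0.63 to 1.17, and CL1-0 was lower at -0.50. NFKB2 had a log2 fold change of 0.52 ± 0.21 (limma, adjusted p 0.386). Without CL1-0 it was 0.77 ± 0.13 (adjusted p 0.194).

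RELB (ENSG00000104856, chr19:45504719-45541450) encodes the partner of p52. RELB went from an FPKM of 5.07 to 7.48 in A549, 1.42 to 1.16 in CL1-0, 5.43 to 8.59 in CL1-5, 1.70 to 9.11 in PC9, 32.4 to 55.01 in H1299 and 14.3 to 32.9 in H1792. As with NFKB2, CL1-0 was the line with a lower value after DAC, here within counting error on 102 and 104 reads. PC9 had the largest change (2.36 on the log2 scale). RELB had a log2 fold change of 0.81 ± 0.33 (limma, adjusted p 0.386). It was 1.08 ± 0.32 (adjusted p 0.394) without CL1-0 and 0.42 without PC9.

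**Figure D2:**
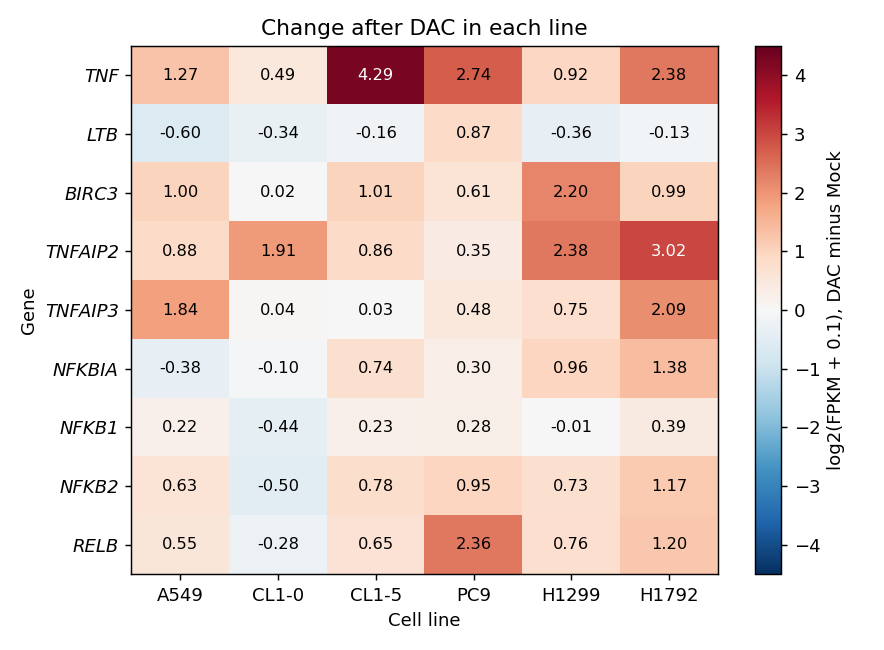
Change of log2(FPKM + 0.1), DAC minus Mock, for each gene (rows) and cell line (columns), with red for higher and blue for lower after DAC. The row of TNF runs from 0.49 in CL1-0 to 4.29 in CL1-5, the column of CL1-0 holds 5 negative values, and the column of PC9 holds 0.

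By line, the 9 genes had their highest median log2 change in H1792, at 1.201, against 0.02 over all genes tested. The medians of the 9 were 0.76 in H1299, 0.74 in CL1-5, 0.63 in A549, 0.61 in PC9 and -0.10 in CL1-0, where the medians over all genes lay between 0 and 0.07. With 1 library a line and treatment, these medians have no replicate check. A change of at least 2-fold was reached in H1792 by TNF, NFKBIA, TNFAIP3, TNFAIP2, RELB and NFKB2, that is 6 of 9 where 10.3% of all genes did so. In A549 it was reached by TNF and TNFAIP3 (15.5% of all genes), in CL1-5 by TNF and BIRC3 (7.25%), in PC9 by TNF and RELB (10.2%), in H1299 by TNFAIP2 and BIRC3 (8.18%), and in CL1-0 by TNFAIP2 (7.6%). None of the 9 was 2-fold lower in any of the 6 lines, a change that 5.79% of all genes showed in H1792, 3.15% in H1299, 5.05% in CL1-5, 6.69% in A549, 3.1% in PC9 and 2.14% in CL1-0. TNF was thus past 2-fold in 4 of 6 lines and TNFAIP2 in 3, and TNFAIP2 was the 1 member past 2-fold in CL1-0. TNF had passed the filter only through the DAC libraries of the lines in the fit, so its counts in those lines are no result. Differences between lines were not tested.

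**Figure D3:**
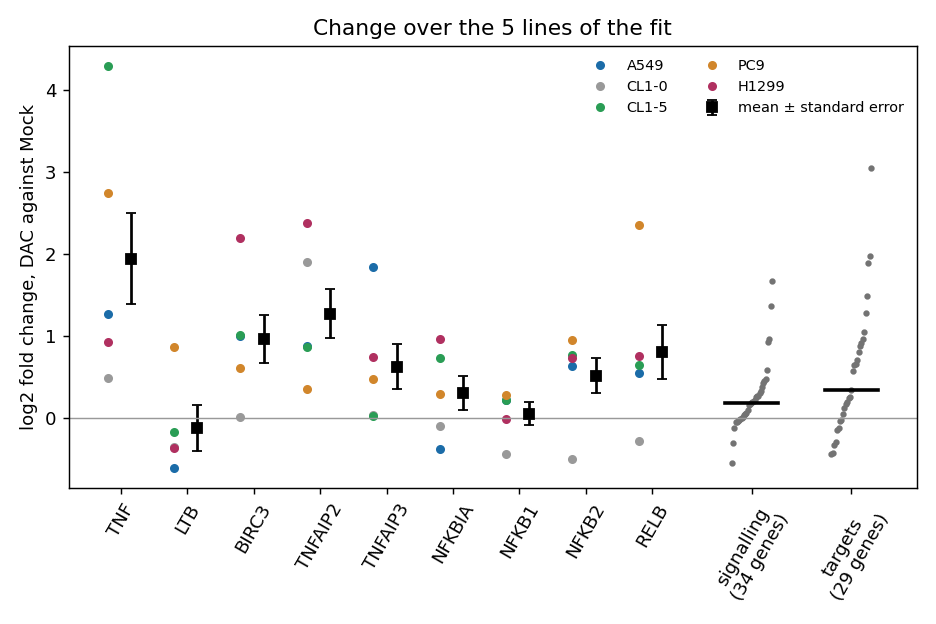
log2 fold change of DAC against Mock for the 9 genes and for the genes of the pathway. Coloured points are the 5 lines of the fit, black squares their mean with the standard error from limma, grey points single genes of the signaling and target lists, and the bars their medians, 0.19 and 0.34; the error bars of LTB and NFKB1 cross 0, and 1 target gene, ICAM1, lies at 3.04.

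The order of the lines also differed between genes. In Mock cells the highest level of RELB and NFKB2 was in H1299, that of TNFAIP3, BIRC3 and NFKB1 in H1792, and that of NFKBIA and TNFAIP2 in A549. CL1-0 had the lowest Mock level of TNFAIP3, TNFAIP2, RELB and BIRC3. The ratio of the highest to the lowest line was 2676 for TNFAIP2, 255 for BIRC3, 29.8 for TNFAIP3, 22.8 for RELB, 6.24 for NFKB2, 3.64 for NFKBIA and 2.63 for NFKB1. TNFAIP3 kept the same order of lines after DAC, with the ratio at 123. Neighbours in these orders have 1 library each, so that their spread is not known. Across the 12 libraries the levels of RELB, NFKB1 and NFKB2 ran together, with Pearson's r of 0.858 for RELB and NFKB1, 0.860 for RELB and NFKB2 and 0.845 for NFKB1 and NFKB2. TNFAIP3 and BIRC3 had an r of 0.800, and TNFAIP2 and NFKB2 one of -0.01. These are descriptions over 12 libraries that share 6 lines.

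Outside the set, the gene most like each member over the 12 libraries, among 12277 genes with a mean of at least 1 FPKM, was PLAT for TNFAIP3 (r 0.979), C19orf33 for TNFAIP2 (0.970), TICAM1 for NFKB1 (0.969), CABLES1 for BIRC3 (0.957), FAM241A for RELB (0.943), EMC3 for NFKBIA (0.942), ZNF226 for NFKB2 (0.935), CCDC28A for LTB (0.872) and BATF2 for TNF (0.829). The lowest of these r values belonged to TNF and LTB, the genes with the fewest reads. Each is the highest of many correlations and carries no test.

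The other genes of the pathway were read from 2 lists. Of 34 signaling genes (receptors, adaptors, kinases and further subunits), 34 were tested, 0 passed in either direction, 26 had a positive log2 fold change, and the median was 0.19 against 0.07 over all genes. LTBR, the receptor of LTB, had the highest value at 1.67 ± 0.65 (limma, adjusted p 0.369). It was 0.995 without CL1-5, 0.96 with voom, 0.62 with a pseudocount of 1 and 2.37 with one of 0.01. Its FPKM went from 0.0470 to 2.99 in CL1-5, 0.145 to 1.395 in H1299 and 0.0202 to 0.264 in CL1-0. Where LTBR was already high in Mock it moved little or fell, from 40.1 to 47.0 FPKM in PC9, 22.3 to 26.4 in H1792 and 37.1 to 27.1 in A549. The kinase adaptor TAB1 had the lowest value, -0.54 ± 0.12 (adjusted p 0.193). The most abundant were TNFRSF1A, the main TNF receptor, at -0.04 ± 0.27 (adjusted p 0.957), and TNIP1, a partner of A20, at 0.07 ± 0.17 (adjusted p 0.878).

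Of 32 known NF-kB target genes, 29 were tested, 0 passed, 21 had a positive log2 fold change, and the median was 0.34. ICAM1, the adhesion molecule bound by leukocyte integrins, had the highest value. Its FPKM went from 0.0252 to 3.88 in A549, 0.0800 to 0.984 in CL1-0, 3.20 to 17.6 in CL1-5, 8.13 to 30.9 in PC9, 1.76 to 18.2 in H1299 and 5.38 to 27.6 in H1792. All 6 lines were higher after DAC, and in CL1-0 ICAM1 was higher where NFKB1 and NFKB2 had lower values. NFKBIA and RELB were also lower in CL1-0, but within counting error. The log2 fold change of ICAM1 was 3.04 ± 0.41 (limma, adjusted p 0.0719), and it passed with H1792 included (2.93 ± 0.36, adjusted p 0.0264). BCL2L1, which encodes the survival protein BCL-XL, had the lowest value, -0.44 ± 0.16 (adjusted p 0.350). The most abundant target genes were PLAU, the urokinase gene, at 0.25 ± 0.16 (adjusted p 0.524), and IER3, an immediate early gene, at -0.03 ± 0.19 (adjusted p 0.9499).

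Chromatin accessibility was compared by the strongest peak within 3000 bp of a start, ranked within its own list as a percentile over 14485 genes, since the fold enrichments of different lists are not on 1 scale. The libraries labelled CL1-5 and PC9 went against their labels. The Mock library labelled CL1-5 had promoter peaks at 95.7% of the 138 genes that mRNA-seq found on in PC9 and off in CL1-5, and the one labelled PC9 at 53.6% of them. For 79 genes with the opposite pattern these shares were 63.3% and 88.6%. In the DAC libraries the shares for the same genes were 97.8% and 63.8%, and 57.0% and 89.9%. Both are named by label, and exchanging them leaves the mean change over the 4 lines as it is. By this rule, which takes a peak near any listed start, the 7 members outside the histocompatibility complex had a promoter peak in 8 of 8 libraries. Of the ranked genes, 81.4% to 88.7% had one in each list. By the distance listed with each peak, TNFAIP2 lacked one in 6 of 8 libraries with a window of 1000 bp. It lacked one in 3 with equal peak numbers and in 1 with a q-value under 0.01. The listed distance can run to another start than that of RefSeq. In the A549 Mock library a peak at chr14:103587562-103590299 was listed at -2365 bp, yet it spanned the RefSeq promoter window of TNFAIP2, chr14:103589548-103589797. In that library the 1000 bp result is therefore no sign of a closed promoter. This does not hold for every library. In the Mock library labelled PC9 the peaks listed for TNFAIP2 within 3000 bp lay outside the RefSeq window. They were at chr14:103590291-103590659 and chr14:103595075-103596134. Those of both H1299 libraries, given below, also lay outside it. With 4 lines an exact sign-flip test cannot go below 0.13, so no test is given.

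Of the 7 genes, RELB had a higher percentile after DAC in 4 of 4 lines, as did 6.71% of all ranked genes. It went from 62.1 to 64.5 in A549, 59.8 to 67.1 in the libraries labelled CL1-5, 69.2 to 80.7 in those labelled PC9 and 66.1 to 71.4 in H1299. Its mean change was 6.65 ± 3.85 percentile points (SD, n = 4). The fold enrichment of its peak was lower after DAC in 3 of 4 lines, and the median over all ranked genes was lower in 4 of 4. BIRC3 moved from 51.0 to 90.6 in the libraries labelled PC9 and by at most 5.67 points in either direction in the others, for a mean change of 10.1 ± 20.1. TNFAIP3 went up in the libraries labelled CL1-5 (44.9 to 69.9) and down in those labelled PC9 (75.5 to 54.4), with a mean of 2.43 ± 19.3. BIRC3 thus moved by more than 20 points in 1 pair of libraries and TNFAIP3 in 2, in opposite directions. Without the libraries labelled PC9, the mean change of BIRC3 was 0.31.

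NFKBIA changed by 6.43 ± 9.88 points, NFKB1 by -2.07 ± 5.19, NFKB2 by -0.63 ± 9.97 and TNFAIP2 by -0.42 ± 4.79, each with an SD above its mean. The mean of TNFAIP2 was not stable, at 1.96 with a q-value under 0.01, -4.57 with equal peak numbers and -5.41 with the transcript starts of the reference annotation. TNFAIP2 had the lowest ranked promoter of the 7 in each library, at 13.4 to 21.5 in Mock, except that with the reference starts NFKBIA was lowest in the Mock libraries labelled CL1-5 and PC9. Its mRNA in A549 was nevertheless the highest Mock level of the 9 genes. In H1299, where TNFAIP2 mRNA went from 0.306 to 2.01 FPKM, its percentile went from 21.5 to 27.4. The H1299 peak spanned chr14:103593341-103593638 in Mock and chr14:103593271-103593847 after DAC. Both lie downstream of the RefSeq promoter window of TNFAIP2, which ends at chr14:103589797. In the Mock library labelled CL1-5 the strongest peak was elsewhere, at chr14:103594641-103596463, so the TNFAIP2 percentiles do not compare the same element between lines. In A549, where NFKBIA mRNA was lower after DAC, its percentile was 37.4 in Mock and 37.02 after DAC.

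All peaks listed for a gene were also counted. TNFAIP3 had more of them after DAC in 4 of 4 lines, from 3 to 7 in A549, 13 to 20 in the libraries labelled CL1-5, 8 to 12 in those labelled PC9 and 10 to 15 in H1299. Such a rise in 4 of 4 lines was found for 10.7% of 15425 tested genes with a listed peak, in lists that grew after DAC from 45354 to 85710 peaks in Mock to 63541 to 97584. NFKBIA went from 8 to 9, 9 to 9, 10 to 14 and 5 to 7 peaks in the same order of lines. RELB, whose promoter percentile was higher in 4 of 4 lines, had between 2 and 4 peaks in every library.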

How the data were processed

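Groups follow the labelled line and treatment. For mRNA-seq, the study's methods give trimming with Trimmomatic, RSEM with bowtie2 on hg19 and counting per gene on GENCODE, and the submitters' processing notes also name TopHat2 2.1.1. The authors deposited FPKM normalized with DESeq2 1.24.0, and a mean normalized signal per gene. The columns of the authors' own comparison (log2 fold change, its error, test statistic and p-values) were not used, and 0 columns of values lacked a sample. For Omni-ATAC-seq the authors aligned with BWA 0.7.17-r1188 to hg19, called broad peaks per library with MACS2 2.2.5, annotated them with ChIPseeker 1.20.0 and deposited a fold enrichment and a −log10 q-value per peak. The read depth of these libraries is unknown here.

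The 9 genes, the gene lists and the tests were chosen with earlier results of these data known. Genes named from the lists were those called, the highest and lowest log2 fold change, the 2 highest means and ICAM1, and the most alike gene was that with the highest Pearson's r.

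From the deposited FPKM and mean signal the whole reads behind each value were recovered (100% whole within 0.02). log2(FPKM + 0.1) of the 22603 genes with a mean of at least 0.1 FPKM over 10 libraries was fitted in R 4.3.3 by limma 3.58.1, blocking on cell line with an intensity trend, tested on simulated data, at a Benjamini-Hochberg adjusted p of 0.05. Lines are the replicates, and p-values measure the spread between them. The study's reporting summary says of its cell experiments in general that treatments were assigned within a parental culture. Deviations of Mock and DAC libraries from the group means correlated at 0.731 to 0.900 within a line and at most 0.115 between lines. Counting intervals (95%, exact) cover counting error only. The floor of 3 reads stands in for a Mock value of 0 and leaves out the counting error of the DAC reads. Motifs and peaks were read in Python 3.11.15 with pandas 2.3.3, numpy 2.4.6 and scipy 1.17.1. Alternatives were H1792 included, no replicate block, a pseudocount of 1 or of 0.01, a filter of 1 FPKM or none, TPM, quantile normalization, no trend, voom, each line left out, and, for peaks, a q-value under 0.01, equal peak numbers, a window of 1000 bp, other starts and exchanged labels.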

Additional observations from a re-analysis of the deposited data

Results flagged for a closer look

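Among 34 groups of values examined, 2 had a library far from the others, and chance flags about 1 in 20 groups. The log2 change of LTB in PC9, 0.87, lay apart from the other 5 lines, with a gap of 0.678 of the whole range against a critical value of 0.625. It rests on 1 Mock read and 5 DAC reads. The log2 change of NFKB2 in CL1-0, -0.50, lay apart below the other 5 lines, with a gap of 0.676 of the range. CL1-0 is also the line whose epithelial markers summed to 0.986 FPKM in Mock, and the part of this in the value was not tested.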

How the results depend on the processing

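0 of the 9 genes passed the adjusted threshold in 132 combinations of gene and alternative, with 0.0601 as the lowest adjusted p. Without the replicate block 10 genes of all tested were higher, against 27 with it, and none of the 9 changed its call. The number of genes higher was 53 with H1792, 0 with a pseudocount of 1, 2 without a filter, 41 on TPM, 17 after quantile normalization, 6 without the trend and 199 with voom. Leaving out 1 line gave 0 to 22, with 0 without A549 or CL1-5, 5 without CL1-0 and 12 without PC9. The number lower, 0 in limma and with voom, was 0 to 1 with a line left out (1 without H1299). 1 target gene, ICAM1, passed with H1792 (adjusted p 0.0264), with a mean of at least 1 FPKM (0.0458) and with voom (0.0329). All voom values carry the limit that the H1299 reads, taken as recovered, are not independent counts. The target median, 0.34 as reported, was 0.68 with H1792, 0.67 with a pseudocount of 0.01, 0.51 on TPM, 0.21 with a pseudocount of 1, 0.17 with a mean of at least 1 FPKM and 0.19 to 0.40 with a line left out (0.19 without PC9). The signaling median, 0.19 as reported, was 0.31 on TPM, 0.30 with voom and 0.12 to 0.22 with a line left out (0.12 without A549). The mean promoter change changed sign with a line left out for TNFAIP3 (-5.09 to 10.3), NFKB2 (-4.67 to 2.65) and TNFAIP2 (-2.51 to 1.38). With 1 line left out, LTB ranged from -0.37 to 0.00081, NFKB1 from -0.00020 to 0.18, TNFRSF1A from -0.32 to 0.20, TNIP1 from -0.038 to 0.21 and IER3 from -0.19 to 0.13. TNFRSF1A was 0.082 on TPM and 0.049 after quantile normalization, and IER3 was 0.10 with H1792, 0.090 on TPM and 0.040 after quantile normalization. The all-gene median log2 fold change, 0.07 as reported, became 0.19 on TPM, 0.17 with voom and -0.04 after quantile normalization, with no change of sign among the 9 genes. The cause of these differences was not tested.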
